A study of Mus musculus with 6 samples.

Results

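The insulin-like growth factor (IGF) axis was examined as 10 genes, named by symbol: the ligand genes Igf1 and Igf2, the receptor genes Igf1r and Igf2r, and the binding protein genes Igfbp2, Igfbp3, Igfbp4, Igfbp5, Igfbp6 and Igfbp7. Each had exactly 1 probe set, so that 10 of the 23410 probe sets annotated with a gene were members. The genes were grouped with the knockdown values already known, and in particular with the low value of Igfbp5 in view. Their differences between the groups are therefore given as a description, without p-values. RNA came from N2A cells, a mouse neuroblastoma line cultured with fetal bovine serum, 2.5 days after transient transfection of 1.5 ug of a short hairpin RNA (shRNA) plasmid. In 3 samples the plasmid targeted Dali, a long non-coding RNA (Dali knockdown), and in 3 samples it was a non-targeting vector (control). Cells were not selected for the plasmid, a single Dali construct was set against a single control vector, and the labels name no other alteration in either group. RNA was hybridised to Affymetrix Mouse Gene 1.0 ST arrays, 1 per sample, and values are log2 signals, so that a difference of 1 is a doubling.

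IGF-I and IGF-II are small secreted proteins related to insulin. Both act through the IGF-I receptor, a tyrosine kinase that passes its signal to the PI3K and AKT kinases and to the RAS and MAP kinase cascade, and the pathway is known for promoting growth and survival of neuroblasts and neuroblastoma cells. The IGF-II receptor carries no kinase and takes IGF-II to lysosomes for breakdown. Binding proteins hold IGFs outside the cell, where they can withhold the ligand from the receptor or, when fixed in the matrix, store it nearby, and proteases release the ligand by cutting them. IGFBP7 differs from the others in binding IGFs only weakly.

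The depletion of Dali itself was not analysed here, because 0 probe sets were annotated to it by symbol or synonym. Array correlations over annotated probe sets ranged from 0.9904 to 0.9975. Of 18 markers of sympathetic neuroblastoma cells, 16 were measured, and the median of their levels was 10.70 in Dali knockdown and 10.93 in control cells. The median of the differences of single markers was -0.10, with a lower mean in knockdown cells for 11 of the 16. Stmn2, Ret and Hand2 were all above 12 and the neurofilament genes Nefl and Nefm near 6. The arrays give no detection calls and a probe set's level depends on its own probes. Levels are therefore compared between groups, and are set against the array medians only to mark low signals.

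The member with the largest difference was Igfbp5, and its promoter is shown with that of Igfbp2, the adjacent gene on mouse chromosome 1, because these neighbours differed in their values. The windows are the 250 bases before the RefSeq start (GRCm38.p6), written 5′ to 3′ along the gene, with CpG dinucleotides in capitals. They are shown because Dali was studied for its effect on methylation of CpG-rich promoters. Igfbp5 lies on the minus strand (chr1:72874866-72875115) and Igfbp2 on the plus strand (chr1:72824230-72824479, the first of 2 starts in the table).
Igfbp5: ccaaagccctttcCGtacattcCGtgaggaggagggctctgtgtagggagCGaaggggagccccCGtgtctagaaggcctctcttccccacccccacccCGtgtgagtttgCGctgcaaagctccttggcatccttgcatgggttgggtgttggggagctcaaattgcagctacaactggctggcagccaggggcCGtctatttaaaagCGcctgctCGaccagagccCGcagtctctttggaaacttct
Igfbp2: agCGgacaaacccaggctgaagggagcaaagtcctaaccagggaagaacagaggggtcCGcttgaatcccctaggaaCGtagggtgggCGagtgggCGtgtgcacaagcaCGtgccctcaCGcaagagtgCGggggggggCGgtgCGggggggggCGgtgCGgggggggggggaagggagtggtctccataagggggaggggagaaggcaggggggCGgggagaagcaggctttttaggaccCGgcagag

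The Igfbp5 window held 10 CpGs with a GC content of 58.8% (observed over expected CpG 0.46), and that of Igfbp2 held 14 with a GC content of 67.2% (0.61). Over all 32851 windows of this length the median was 6 CpGs with quartiles of 2 and 16, so that 62.2% of windows had fewer than Igfbp5. Most other binding protein genes were richer, with 22 CpGs for Igfbp4, 26 for Igfbp7 and 32 for Igfbp3, while Igfbp6 had 7. The richest member window was that of Igf1r, with 42, above 99.1% of all windows. The octamer ATGCAAAT, a sequence bound by POU factors such as the product of Pou3f3, the gene next to Dali, was searched on both strands and was in 0 of the 14 member windows, as in all but 1.6% of windows. The GC box GGGCGG (both strands) was in 6 of the 14, against 32.7% of all windows. It was in the Igfbp2 window shown, but not in that of the second Igfbp2 start or of Igfbp5. The window of the second Igfbp2 start held 11 CpGs with a GC content of 56.4% (observed over expected CpG 0.66). Both Igfbp2 windows thus exceeded that of Igfbp5 in CpGs and in observed over expected CpG. The contrast in GC content and in the GC box depends on the start.

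Igfbp5, which encodes a matrix-bound binding protein with high affinity for IGFs, was 2.17-fold lower in Dali knockdown cells (probe set 10355500). Its log2 values were 9.04, 9.15 and 9.0 on the knockdown arrays numbered 1, 2 and 3, against 10.27, 10.06 and 10.21 on the control arrays with those numbers. The groups did not overlap, and the highest knockdown array lay 0.91 below the lowest control array. The means were 9.06 ± 0.08 in Dali knockdown and 10.18 ± 0.11 in control cells (SD, n = 3 each), a difference of -1.12 (SE 0.13, 95% interval -1.40 to -0.83 in the limma fit over all probe sets kept by the variance filter), or a change of -53.9%. Within numbers 1, 2 and 3 the differences were -1.23, -0.91 and -1.21. Of the 23410 annotated probe sets, 3 had a lower difference. With bulk RNA, fewer cells expressing the gene and less RNA per cell cannot be told apart.

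**Figure D1:**
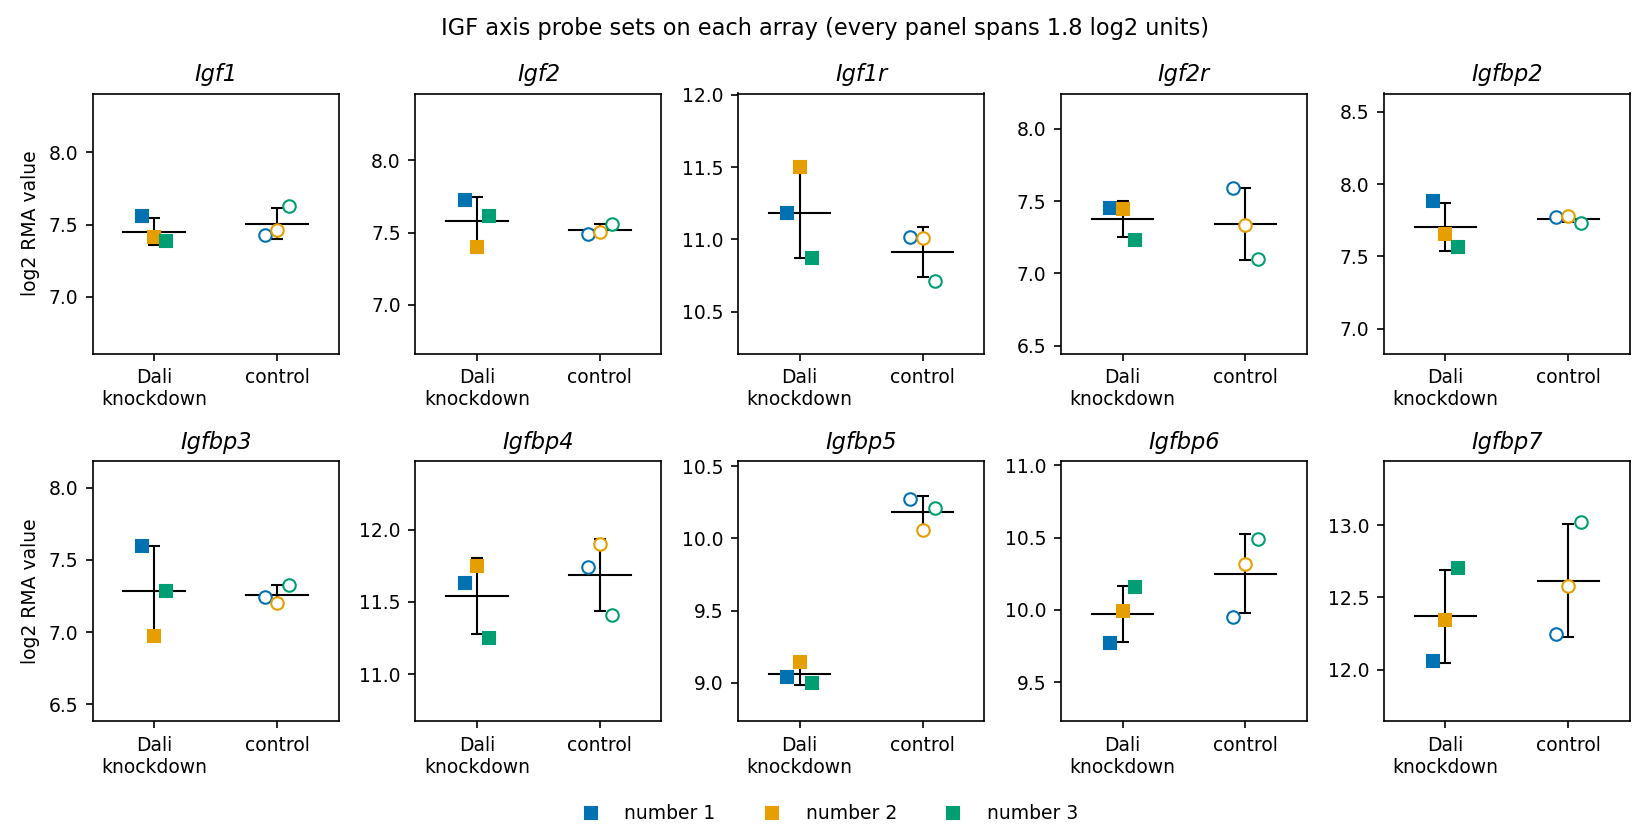
Log2 RMA values of the 10 genes on each array, 1 panel per gene, with filled squares for Dali knockdown and open circles for control arrays, with a colour for each replicate number. Means are drawn as horizontal lines with their SD as error bars (n = 3). The groups stand apart for Igfbp5 (means 9.06 in knockdown and 10.18 in control cells) and overlap in the other panels.

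A probe set was called where the limma adjusted p was under 0.1 and the change at least 1.3-fold, among probe sets that passed a filter on variance. The filter kept 6 members (Igf1r, Igf2r, Igfbp4, Igfbp5, Igfbp6 and Igfbp7) and removed Igf1, Igf2, Igfbp2 and Igfbp3. Among the 6, Igfbp5 alone was called, where 1.14% of the 11705 probe sets tested were called and 0.769% were called as lower. Nothing is read from this count, because Igfbp5 was chosen on the same values. Groups did not overlap in 1 of the 10 members, against 15.4% of annotated probe sets. Over the 10 members the median difference was -0.06, and 6 had a lower mean in knockdown cells. Over all annotated probe sets the median was 0.02, with 44.8% lower.

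The other binding protein genes had smaller differences, and their groups overlapped. Igfbp6 encodes a binding protein that prefers IGF-II. It had values of 9.77, 9.99 and 10.15 on knockdown arrays 1, 2 and 3, against 9.95, 10.31 and 10.49 on the control arrays. Each knockdown array was lower than the control array with its number, by between 0.18 and 0.33, but knockdown arrays 2 and 3 were above control array 1. The means were 9.97 ± 0.19 in Dali knockdown and 10.25 ± 0.27 in control cells (SD, n = 3 each), a difference of -0.28 (95% interval -0.61 to 0.06).

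Igfbp7, a secreted protein of vessels and matrix, ran in the same way over the arrays. Its values were 12.06, 12.34 and 12.70 on knockdown arrays 1, 2 and 3, against 12.25, 12.58 and 13.03 on the control arrays. The arrays numbered 3 were the highest and those numbered 1 the lowest in both groups, as for Igfbp6, so that the spread between numbers was wider than the difference within a number. The means were 12.37 ± 0.32 in Dali knockdown and 12.62 ± 0.39 in control cells (SD, n = 3 each), a difference of -0.25 (95% interval -0.65 to 0.16), with -0.18, -0.23 and -0.32 within the 3 numbers.

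Igfbp4, whose product restrains IGF action until it is cut by the protease pappalysin-1, had values of 11.63, 11.75 and 11.25 on knockdown arrays 1, 2 and 3, against 11.74, 11.90 and 11.41 on control arrays. Here the arrays numbered 3 were the lowest of each group. The difference was -0.14 (95% interval -0.49 to 0.20), with -0.11, -0.15 and -0.16 within the numbers. Igfbp4, Igfbp5, Igfbp6 and Igfbp7 were thus lower in knockdown cells in each of the 3 numbers, as were 19.7% of annotated probe sets.

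Igfbp2, a binding protein of developing brain, did not share the lower knockdown signal of its neighbour Igfbp5. Its values were 7.89, 7.65 and 7.57 on knockdown arrays 1, 2 and 3, against 7.77, 7.78 and 7.73 on control arrays, and the difference was -0.06 (95% interval -0.28 to 0.17). Igfbp3, the main carrier of IGFs in blood, had 7.60, 6.97 and 7.29 on knockdown arrays, against 7.25, 7.21 and 7.33 on control arrays, with a difference of 0.02 (95% interval -0.31 to 0.36). The knockdown arrays of both genes enclosed their control arrays, so that no direction was shared by the 3 numbers. All values of both genes lay below the array medians (8.34 to 8.40), though above the 25th percentiles of the arrays (6.69 to 6.87). Without detection calls, a small difference at such levels cannot tell steady RNA from a signal near background.

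**Figure D2:**
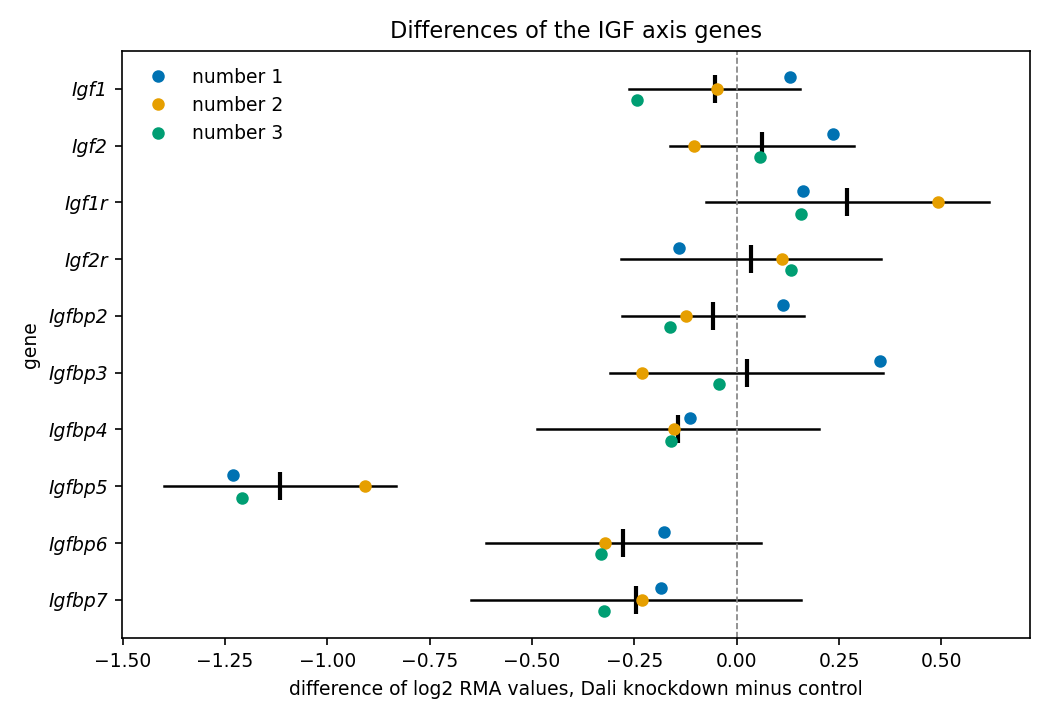
Differences of log2 RMA values, Dali knockdown minus control (horizontal axis), for the 10 genes (vertical axis). Coloured points are differences between arrays of one replicate number, vertical ticks the difference of means and black lines its 95% interval. The intervals are from the limma fit that takes no account of the replicate numbers, so they include the spread between numbers. Igfbp5 lies at -1.12 with its points from -1.23 to -0.91, and each of the other 9 intervals holds 0. This does not show the absence of a difference. All points of Igfbp4, Igfbp6 and Igfbp7 lie below 0 and all of Igf1r above it. With the replicate block, Igfbp6, Igfbp7 and Igf1r missed a call by the 1.3-fold limit alone.

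The signals of the ligand genes differed little between the groups. Igf1 had values of 7.56, 7.41 and 7.38 on knockdown arrays 1, 2 and 3, against 7.43, 7.46 and 7.63 on control arrays, a difference of -0.05 (95% interval -0.26 to 0.16). Igf2, an imprinted gene expressed from the paternal copy in most fetal tissues, had 7.72, 7.40 and 7.62 on knockdown arrays, against 7.49, 7.50 and 7.56 on control arrays, a difference of 0.06 (95% interval -0.16 to 0.29). Both genes had overlapping groups and signs that differed between numbers. Their values also lay below the array medians, with the limit given for Igfbp2 and Igfbp3. Mir483, a microRNA gene inside Igf2, differed by 0.17 (limma adjusted p = 0.74), and Igf1os, an RNA gene opposite Igf1, by 0.08 (adjusted p = 0.88).

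Of the receptor genes, Igf1r had the largest positive difference of the 10 members. Its values were 11.18, 11.50 and 10.87 on knockdown arrays 1, 2 and 3, against 11.02, 11.01 and 10.71 on control arrays. Each knockdown array was above the control array of its number, by 0.16, 0.49 and 0.16, but knockdown array 3 lay below control arrays 1 and 2. The means were 11.18 ± 0.32 in Dali knockdown and 10.91 ± 0.17 in control cells (SD, n = 3 each), a difference of 0.27 (95% interval -0.07 to 0.62), and without knockdown replicate 2 the difference was 0.11. Igf2r had 7.45, 7.44 and 7.23 on knockdown arrays, against 7.59, 7.33 and 7.10 on control arrays. Its difference of 0.03 (95% interval -0.28 to 0.35) was smaller than the spread within either group, and its values too lay below the array medians.

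The 4 members that the variance filter removed were all higher on knockdown array 1 than on control array 1, by 0.11 to 0.35. On the same pair of arrays the median difference of fibroblast and mesenchymal markers was 0.24, of immune markers 0.14 and of Schwann and glial markers 0.12, while it was -0.11 for both endothelial and neuroblastoma markers. In numbers 2 and 3 the medians of those 5 lists lay between -0.14 and 0.02. Over all probe sets that the filter removed, the median difference in number 1 was 0.04.

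Since fibroblasts and vessel cells are known to express Igfbp5 and Igfbp7, their markers were set beside the result. All 13 fibroblast and mesenchymal markers were measured, 4 with a lower mean in knockdown cells and 0 of 9 tested called by limma (0 at an unadjusted p under 0.05). Their summed log2 level ranged from 11.38 to 11.56 on knockdown arrays and from 11.47 to 11.81 on control arrays, which overlap, and was lower on the knockdown array in 2 of the 3 numbers. Pdgfrb, a receptor gene of pericytes and fibroblasts, had 8.97 ± 0.68 in Dali knockdown and 9.58 ± 0.91 in control cells (SD, n = 3 each). Its difference of -0.61 (-0.64, -0.82 and -0.37 within the numbers) was not called by limma (adjusted p = 0.49). With the replicate block Pdgfrb was called as lower (0.013), as the 1 marker of the 30 tested in the 5 lists. Over all probe sets tested, the block fit called 7.65%, and 4.89% as lower, and the main fit 1.14%. The counts of called markers therefore do not set these lists apart. Of the 9 endothelial markers, 6 had a lower mean in knockdown cells, and 0 of 6 tested were called (0 at an unadjusted p under 0.05). Their summed levels were 11.58 to 11.85 on knockdown and 11.72 to 12.03 on control arrays, again overlapping. Within numbers 1, 2 and 3 the endothelial sum was lower on the knockdown array each time, with differences of -0.23, -0.18 and -0.14. Egfl7, a gene of vessel cells, had the highest level of the 9 and so the most weight in the sum. Its groups did not overlap, as in 15.4% of annotated probe sets, with 10.61 ± 0.18 in Dali knockdown and 10.90 ± 0.12 in control cells (SD, n = 3 each). The difference of Egfl7 was -0.29 (limma adjusted p = 0.42), while Tek, Tie1 and Kdr differed by 0.07, 0.08 and 0.04. Col1a1 and Dcn differed by 0.05 and -0.22. The samples were cultures of the N2A line, and no other cell type is described in them. The marker values are therefore signals of these cultures, and their relation to the Igfbp5 value was not tested.

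Igfbp2 and Igfbp5 are adjacent, as are Igfbp1 and Igfbp3. The 2 nearest genes with a probe set on each side of each Igfbp member were compared between the groups. These were 20 genes other than members, with 26 probe sets, of which 13 passed the variance filter. Of the 13, 0 were called by limma (1 had an unadjusted p under 0.05). Over all probe sets tested, 1.14% were called and 12.7% had an unadjusted p under 0.05. A count of 0 among 13 therefore cannot tell these neighbours from other probe sets. Igfbp2 is the next gene on one side of Igfbp5, with no RefSeq gene between them. On the other side Tnp1, a transition protein gene of sperm, differed by 0.25 (limma adjusted p = 0.56). Beyond Igfbp2, the ribosomal protein gene Rpl37a differed by -0.04 (adjusted p = 0.92), and beyond Rpl37a the ankyrin and armadillo repeat gene Ankar by 0.12 (0.80). Beyond Tnp1, 6 probe sets of Tns1 had differences between -0.30 and 0.11 (adjusted p of 0.41 or more).

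**Figure D3:**
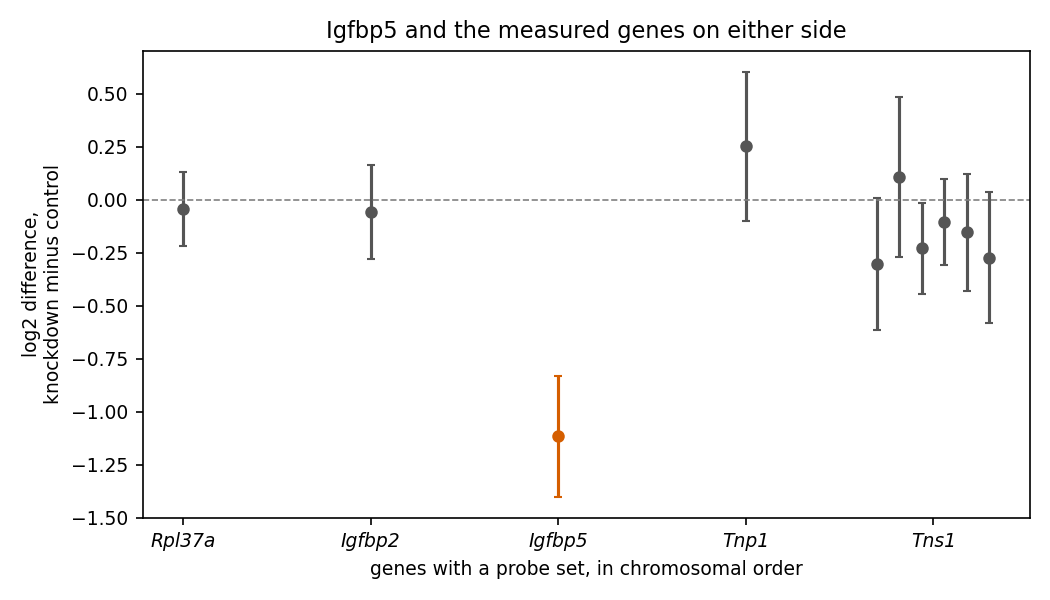
Differences of log2 RMA values, Dali knockdown minus control (vertical axis), for Igfbp5 and the measured genes on either side in chromosomal order (horizontal axis, not to scale). Points are probe sets and bars 95% intervals of the limma fit. Igfbp5 lies at -1.12, Igfbp2 at -0.06, Tnp1 at 0.25 and the 6 probe sets of Tns1 between -0.30 and 0.11.

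Tns1 is a tensin gene, a family that links integrins to actin, and 4 tensin genes were found among these neighbours: Tns1 near Igfbp5, Tns2 near Igfbp6, Tns3 near Igfbp3 and Tns4 near Igfbp4. None of their 9 probe sets was called by limma. Tns2 differed by -0.20, Tns3 by -0.08 and Tns4 by 0.06 (adjusted p of 0.60, 0.86 and 0.90). Igfbp3 also adjoins Igfbp1, a binding protein gene known from liver, which had no called change (6.96 ± 0.08 in Dali knockdown and 6.80 ± 0.04 in control cells, SD, n = 3 each, difference 0.16, limma adjusted p = 0.56), while the next genes Adcy1 and Pkd1l1 differed by 0.07 and 0.01. Top2a, the topoisomerase of dividing cells, lies beside Igfbp4 and had a difference of 0.44 at one probe set (12.56 ± 0.12 in Dali knockdown and 12.13 ± 0.25 in control cells, SD, n = 3 each). It was not called (limma adjusted p = 0.22), but was called as higher with the replicate number as a block (adjusted p = 0.021). A second probe set of Top2a differed by -0.17 (adjusted p = 0.77). The other neighbours of Igfbp4, Igfbp6 and Igfbp7 (Gjd3, Ccr7, Spryd3, Csad, Zfp740, Noa1, Polr2b, Pea15b and Adgrl3) had differences between -0.16 for Ccr7 and 0.17 for Polr2b.

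Genes that act with the IGF axis were taken from 8 lists, listed by function, that held 152 genes, of which 135 were measured by 147 probe sets. Of the 90 probe sets tested, 1 was called as lower and 0 as higher. This share, 1.11%, was close to the 1.14% of all probe sets. An unadjusted p under 0.05 was found for 11 of them, or 12.2%, against 12.7% of all probe sets tested. Over the 147 the median difference was 0.00, with 72 lower and 75 higher. With the replicate number as a block, 9 probe sets of 8 genes were called, all lower, or 10% of those tested, where the same fit called 7.65% of all probe sets and 4.89% as lower.

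The called gene was Kazald1, which encodes a secreted protein with an IGFBP-like domain joined to a Kazal-type domain. Its values were 8.48, 8.84 and 8.49 on knockdown arrays 1, 2 and 3, against 9.29, 9.37 and 9.25 on control arrays, and the groups did not overlap. The means were 8.60 ± 0.20 in Dali knockdown and 9.30 ± 0.06 in control cells (SD, n = 3 each), a difference of -0.70 (SE 0.14), which is 1.63-fold lower (limma adjusted p = 0.047, or 0.0082 with the replicate block). Kazald1 was not called without knockdown replicate 1, without control replicate 1, or without the variance filter. In its list of IGFBP-related CCN and matrix genes, the other 5 tested were not called, and the median over 13 probe sets was -0.03. Ccn2 and Ccn1, matrix proteins with an IGFBP-like domain, differed by 0.03 and 0.08.

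In each of the other 7 lists limma called 0 probe sets. Among insulin family and other IGF-binding genes, 0 of 6 tested had an unadjusted p under 0.05, and the median over 10 probe sets was 0.10. The insulin receptor gene Insr differed by 0.16 and 0.04 at its 2 probe sets (limma adjusted p = 0.73 and 0.94), Igfals, which encodes a partner of IGFBP3 and IGFBP5 in blood, by 0.13 (0.79), and Igf2bp1, an RNA-binding protein gene, by 0.16 at the probe set with the smaller p (0.71). Of the proteases that cut binding proteins and their inhibitors, 0 of 13 tested had an unadjusted p under 0.05. Pappa, the protease gene known for cutting IGFBP4, differed by 0.03 (adjusted p = 0.97), and Pappa2, known for cutting IGFBP3 and IGFBP5, by -0.10, 0.09 and 0.01 at 3 probe sets (0.89, 0.88 and 0.99). The lysosomal protease gene Ctsd differed by -0.32 (adjusted p = 0.39) and Stc2, an inhibitor of pappalysins, by -0.23 (0.50).

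Among receptor substrates and adaptors, 4 of 16 tested had an unadjusted p under 0.05. Irs1, the docking protein that the activated IGF-I receptor phosphorylates, had 2 probe sets with the same difference of -0.40. At the one with higher signal the values were 9.81, 9.92 and 9.98 on knockdown arrays 1, 2 and 3, against 10.33, 10.12 and 10.46 on control arrays. At the other they were 6.53, 6.32 and 6.42 on knockdown arrays, against 6.85, 6.79 and 6.82 on control arrays. The groups did not overlap at either probe set. Neither was called (limma adjusted p = 0.22 and 0.20), but both were called as lower with the replicate block (0.031 and 0.021). Irs2, its close relative, differed by 0.12 (adjusted p = 0.84). Grb14, an adaptor that inhibits insulin receptor signalling, differed by -0.48 (adjusted p = 0.34, or 0.015 and called with the replicate block).

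In the PI3K, AKT, mTOR and FOXO list, 3 of 18 tested had an unadjusted p under 0.05 and the median was 0.01. The regulatory subunit gene Pik3r3 differed by -0.50 (10.02 ± 0.25 in Dali knockdown and 10.52 ± 0.08 in control cells, SD, n = 3 each, limma adjusted p = 0.15) and the catalytic subunit gene Pik3cb by 0.29 (0.37). Deptor, an inhibitor of mTOR, differed by -0.48 (adjusted p = 0.18). With the replicate block Pik3r3 (adjusted p = 0.018) and Deptor (0.013) were called as lower. In the RAS, RAF and MAP kinase list, 1 of 12 tested had an unadjusted p under 0.05. Spred1, an inhibitor of this cascade, differed by -0.39 (adjusted p = 0.24, or 0.029 and called with the replicate block), Rras, a small GTPase gene, by -0.41 (0.54, or 0.020 and called as lower with the block), and Rasa1, a GTPase-activating protein gene, by 0.15 (0.55).

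Genes that FOXO factors switch on when IGF signalling is low had a median difference of -0.05, with 12 of 22 probe sets lower and 1 of 13 tested at an unadjusted p under 0.05. Klf6 differed by -0.33 and Cited2 by -0.21 (limma adjusted p = 0.30 and 0.53). Among imprinted growth genes, 2 of 9 tested had an unadjusted p under 0.05. Mest differed by -0.41 (13.21 ± 0.11 in Dali knockdown and 13.62 ± 0.12 in control cells, SD, n = 3 each, adjusted p = 0.20, or 0.019 and called as lower with the replicate block). Grb10, an imprinted inhibitor of the IGF-I receptor, differed by 0.30 (adjusted p = 0.38). H19, the imprinted RNA gene downstream of Igf2, was not analysed here. Pou3f3, the gene next to Dali, differed by 0.04 (adjusted p = 0.97), with 0.35, -0.21 and -0.03 within the numbers. The study reported lower Pou3f3 by qRT-PCR after transient knockdown with several Dali constructs, and also in stable knockdown lines. Those transient measurements were made later after transfection than these arrays, which used a single construct. Assay, time and constructs thus all differ from the array value.

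**Figure D4:**
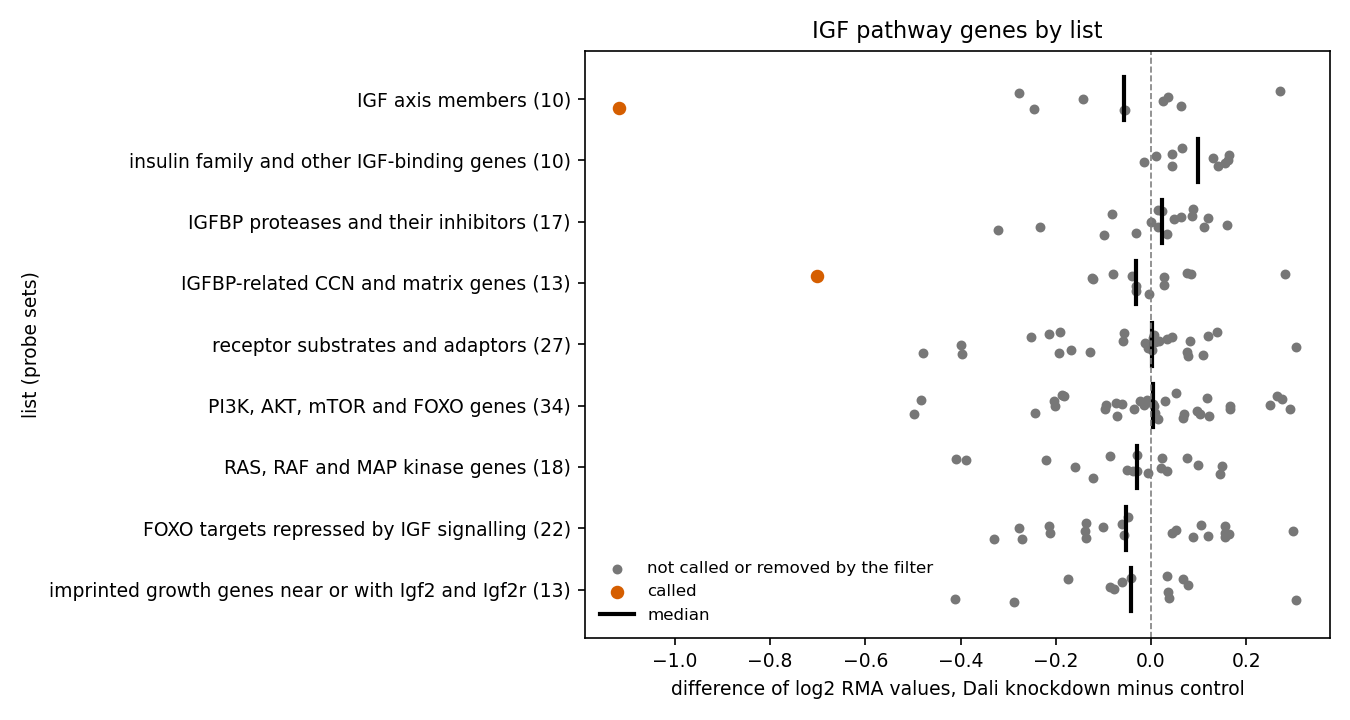
Differences of log2 RMA values, Dali knockdown minus control (horizontal axis), for the 10 members and for the probe sets of 8 lists of genes that act with the IGF axis (vertical axis, with the number of probe sets). Orange points were called by limma, grey points were not called or were removed by the variance filter, and black ticks are medians. Igfbp5 (-1.12) and Kazald1 (-0.70) lie apart at the low end, and the medians of the 8 lists lie between -0.05 and 0.10.

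The probe sets whose values over the 6 arrays were most like those of Igfbp5 were sought by Pearson correlation among 11070 that passed the variance filter and named 1 gene. The 5 highest were Vgf, a neuropeptide precursor gene (r = 0.996), Tef, a transcription factor gene of the circadian output (0.995), Cnot6, a deadenylase gene (0.995), Slc25a46 of the mitochondrial outer membrane (0.994) and Gfpt1, the first enzyme of the hexosamine pathway (0.994). The 6 arrays are 2 groups of 3, so that a gene that differs between the groups with little spread ranks high here, and the values are a description. With the group means removed the correlations were between 0.63 for Slc25a46 and 0.88 for Tef. Of the 5, Gfpt1 was called as lower, with a difference of -0.59 (limma adjusted p = 0.066), and Vgf differed by -0.36 (11.69 ± 0.01 in Dali knockdown and 12.05 ± 0.03 in control cells, SD, n = 3 each, adjusted p = 0.24). Tef differed by -0.46 (adjusted p = 0.13) and Cnot6 by -0.40 (0.19), and both were called as lower only with the replicate block (0.015 and 0.020). The difference of Igfbp5 was larger in size than that of each of these 5.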

How the data were processed

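The authors background corrected the probe intensities of 6 arrays, quantile normalised them and summarised each gene by RMA. The values they deposited are log2 signals (2.76 to 14.8) and were used unchanged. Versions of their tools are not given in the sources used here. Of 35556 rows, 21789 were annotated with 1 gene symbol, 1621 with several and 12146 were left unnamed and out of the tests. Symbols were checked by Entrez number against a RefSeq table (GRCm38.p6), which changed 0, and promoter windows and gene order were taken from RefSeq of that build.

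Groups and replicate numbers came from the labels. The series calls the samples biological replicates without naming cultures or days, so that p-values reflect the spread among these 6 samples. As in the methods of the study, a variance filter and limma were used. Here the filter kept the 11705 of 23410 annotated probe sets with an interquartile range above the median. Groups were compared with limma 3.58.1 in R 4.3.3 (lmFit and eBayes, two-sided, Benjamini-Hochberg adjustment), with a call at an adjusted p under 0.1 and 1.3-fold. Genes removed by the filter were read from the fit without it. The procedure was tested on simulated data in which all arrays varied independently, which leaves out what same-numbered arrays share here. The number of arrays limits the precision.

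Deviations from the group means correlated between same-numbered arrays by 0.14, 0.65 and 0.65, all over 0.1. The main fit, with its intervals and adjusted p, took no account of the numbers. A fit with the number as a block was therefore run beside it and is given where it changed a call. Members and lists were chosen with earlier results of these data known. All members were named, with Igfbp1, Igfals, Insr, Irs1, Irs2, H19, Pappa, Pappa2 and Pou3f3. Of each list, the naming rule took up to 4 called genes, or 2 by smallest p where none was called, and also the neighbours, the 5 genes most like Igfbp5 and up to 4 called only with the block. Mir483, Igf1os, Adcy1, Ccn1 and Ccn2 and single marker genes were named after their values were seen. Alternatives were the block, the filter, median centring, eBayes with trend and robust, and leaving out each array. Their effect on the count over all probe sets, not planned at first, was added after the data were seen.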

Additional observations from a re-analysis of the deposited data

How the results depend on the processing

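The Igfbp5 difference lay between -1.18 and -1.07 when each array was left out in turn, and was -1.09 with each array centred on its median and -1.21 as the median of the same-numbered differences. The count of members called was 1 in each leave-one-out fit, with the replicate block, without the variance filter, with median centring and with eBayes using trend and robust. Nothing is read from this count, since Igfbp5 was chosen on these values. When unnamed rows entered the filter, 0 of all 17778 rows tested passed the limma call (1597 had an unadjusted p under 0.05), so 0 members were called (1 at an unadjusted p under 0.05) and 0 pathway probe sets (8), and the cause was not tested. The directions of 5 other members turned under 8 of their alternatives, with values between -0.13 and 0.01, so the direction was not settled for Igf1, Igf2, Igf2r, Igfbp2 and Igfbp3. Igfbp4 turned only without knockdown replicate 3, to 0.0028. Igfbp6, Igfbp7 and Igf1r kept their direction.

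The pathway count of 1 was 9 with the replicate block, 4 with trend and robust, 0 without the filter (20 at an unadjusted p under 0.05) and between 0 and 3 without single arrays. The count of 0 among neighbours was 1, Top2a, with the replicate block and with trend and robust, and 0 in each leave-one-out fit. Over all probe sets, 133 were called, against 896 with the block, 41 without the filter, 427 with trend and robust, and 4 to 508 without single arrays (4 without knockdown replicate 1). The arrays give no detection calls, so how far each signal stood above background was not analysed here.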
